A study of Rattus norvegicus with 3 samples.

Results

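The genes of the translation initiation factors (eIFs) were described in 2 lists of liver H3K4me2 peaks, 1 from an olanzapine library and 1 from a clozapine library, called olanzapine liver and clozapine liver here. A gene was a member when a peak of either list named it and its symbol began with Eif and a digit from 1 to 6, without the eIF2 kinases (Eif2ak genes). This gave 45 member genes of 12100 gene names in both lists together, 32 of them named for olanzapine and 42 for clozapine. The RefSeq names table of assembly GRCr8 holds 49 protein-coding genes with a curated transcript and such a symbol. The other 4 of these, Eif3e, Eif4ebp3, Eif4g1 and Eif5a2, were named by no peak of either list.

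The animals were female Sprague-Dawley rats, dosed by mouth 2 times a day for 9 weeks with olanzapine at 3 mg/kg or clozapine at 20 mg/kg, with 12 animals per group. The number of animals behind each library is not given in the sources used here. Olanzapine was eaten in a pellet, and most clozapine doses were given by oral syringe, so the route of feeding also differed. Liver chromatin was taken for ChIP-seq of histone H3 dimethylated at lysine 4. The olanzapine and clozapine libraries were analysed; a vehicle library is labelled too, but no peak list of it was used here. With 1 library per drug, replicate error cannot be measured, drug and library cannot be told apart, and no test between the drugs was made.

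Eukaryotic translation initiation brings the initiator tRNA, the small ribosomal subunit and the start codon of an mRNA together. eIF2 carries the initiator tRNA, eIF2B recharges eIF2 with GTP, eIF3 is the large scaffold on the small subunit, and the eIF4 factors bind the mRNA cap and unwind the leader. The liver makes plasma proteins in large amounts and relies on this machinery. H3K4me2 is a mark of promoters and enhancers, where it usually lies around the start of transcribed genes.

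The lists give for each peak a position on Rnor_6.0, a fold enrichment, a p-value and a q-value as -log10, and a class relative to genes, all by the authors. The olanzapine list holds 7128 peaks over 5.18 Mb and the clozapine list 19449 peaks over 6.03 Mb. In the olanzapine list 0.884% of peaks shared their fold, p and q exactly with another peak and 324 peaks had the shortest length, 196 bp. For clozapine the share was 44.0%, and 8083 peaks had the shortest length, 170 bp. The olanzapine list holds 0 peaks on Y chromosome sequence and the clozapine list 146, of which 9 are on the main Y sequence, although all rats are labelled female. In the upstream, 5' UTR, exonic and splicing classes, 14 of 16 hepatocyte marker genes had a peak in olanzapine liver and 12 in clozapine liver, among them Alb, Apob and Foxa1 in olanzapine liver. Of 6 liver endothelial, 6 stellate and 6 cholangiocyte markers, 0 of each had one in olanzapine liver, and 4, 3 and 3 had one in clozapine liver. By these classes 22.7% of all protein-coding genes had a peak in olanzapine liver and 14.4% in clozapine liver. With so few markers per list, a difference in cell content was not tested. Kupffer cell and lymphocyte markers had 0 of 6 each in both by these classes, and Adgre1, a Kupffer cell marker, had a clozapine peak when any class but intergenic was counted. The study's read statistics give several times fewer reads assigned to the genome for clozapine than for olanzapine, from a similar number of clean reads. The part that these differences between the libraries play in the values below was not tested.

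The start regions of 4 members are shown because the authors placed olanzapine peaks of these genes in the upstream or 5' UTR class. Distances to the start were known for Eif5 and Eif2b3, and not for Eif5a and Eif1ad. Eif5 and Eif5a are the members at which peaks of both libraries met, Eif2b3 is the gene whose olanzapine peak began closest inside a measured start, and Eif1ad shares its start region with a gene on the other strand. The sequences are from the RefSeq promoter table of GRCr8, 5' to 3' on the strand of the gene, and end 30 bases after the annotated start. They begin 250 bases before it, except Eif1ad, which begins 192 bases before it. Capitals mark matches on either strand to the GC box (GGGCGG), the CCAAT box (CCAAT), the E-box (CACGTG) or the ETS core (CCGGAAG).
Eif5, chr6:136410083-136410362, plus strand: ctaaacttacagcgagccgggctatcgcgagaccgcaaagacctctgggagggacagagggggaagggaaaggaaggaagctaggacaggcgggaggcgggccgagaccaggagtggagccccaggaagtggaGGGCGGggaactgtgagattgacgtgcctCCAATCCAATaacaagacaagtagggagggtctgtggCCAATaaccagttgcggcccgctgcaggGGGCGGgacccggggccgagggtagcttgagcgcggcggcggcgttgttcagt
Eif5a, chr10:55143192-55143471, minus strand: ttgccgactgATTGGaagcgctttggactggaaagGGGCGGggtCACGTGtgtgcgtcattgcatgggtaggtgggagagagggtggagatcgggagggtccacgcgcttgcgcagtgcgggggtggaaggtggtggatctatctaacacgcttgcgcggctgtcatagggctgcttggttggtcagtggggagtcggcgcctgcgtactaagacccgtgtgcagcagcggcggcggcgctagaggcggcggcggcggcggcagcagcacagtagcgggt
Eif2b3, chr5:135728592-135728871, plus strand: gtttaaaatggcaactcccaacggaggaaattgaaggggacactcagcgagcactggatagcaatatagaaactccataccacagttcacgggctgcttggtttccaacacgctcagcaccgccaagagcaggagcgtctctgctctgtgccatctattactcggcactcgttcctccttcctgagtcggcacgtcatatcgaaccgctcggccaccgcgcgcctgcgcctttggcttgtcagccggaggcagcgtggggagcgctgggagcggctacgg
Eif1ad, chr1:212103523-212103744, plus strand: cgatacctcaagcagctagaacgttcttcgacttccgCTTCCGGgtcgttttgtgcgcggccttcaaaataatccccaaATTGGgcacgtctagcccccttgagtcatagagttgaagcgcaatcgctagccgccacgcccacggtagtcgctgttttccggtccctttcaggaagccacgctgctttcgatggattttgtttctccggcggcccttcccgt
Eif5 held 3 CCAAT boxes, beginning 88, 83 and 51 bases before its start, and 2 GC boxes, 117 and 23 bases before it. Eif5a held a CCAAT box read on the other strand 240 bases before its start, a GC box 215 bases and an E-box 206 bases before it. Eif1ad held an ETS core and a CCAAT box, both on the other strand. Eif2b3 held 0 of the motifs searched. GRCr8 is not the build of the peaks, so motif positions were not joined to peak positions.

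The main count took a gene as marked where a peak naming it was in the upstream, 5' UTR, exonic or splicing class, and the upstream class reached at most 986 bp from a gene. By this count 24 members had a peak in olanzapine liver and 27 in clozapine liver, 17 of them in both. Of the 49 curated genes these are 49.0% (95% Wilson interval 35.6 to 62.5), 55.1% (41.3 to 68.1) and 34.7% (22.9 to 48.7). Over all 18539 curated protein-coding genes the shares were 22.7% in olanzapine liver, 14.4% in clozapine liver and 5.72% in both. Wilson intervals here cover counting only. The members with a peak in olanzapine liver alone were 7, those in clozapine liver alone 10, and 11 had one in neither.

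Counting any class but intergenic, 27 members had a peak of their own in olanzapine liver and 34 in clozapine liver, against 26.8% and 28.2% of all genes, in that order of the drugs. In the upstream and 5' UTR classes the order of the libraries turned: 9 members had such a peak in olanzapine liver and 2, Eif5 and Eif5a, in clozapine liver. Of all genes, 7.24% had such a peak in olanzapine liver and 0.879% in clozapine liver. The 9 olanzapine genes were Eif1ad, Eif1b, Eif2b3, Eif3b, Eif4e2, Eif4enif1, Eif4g2, Eif5 and Eif5a. Peaks in the 3' UTR class named 0 members in olanzapine liver and 4 in clozapine liver, Eif3b, Eif3j, Eif4b and Eif4g2. Of all genes 0.0647% had such a peak in olanzapine liver and 2.13% in clozapine liver.

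**Figure D1:**
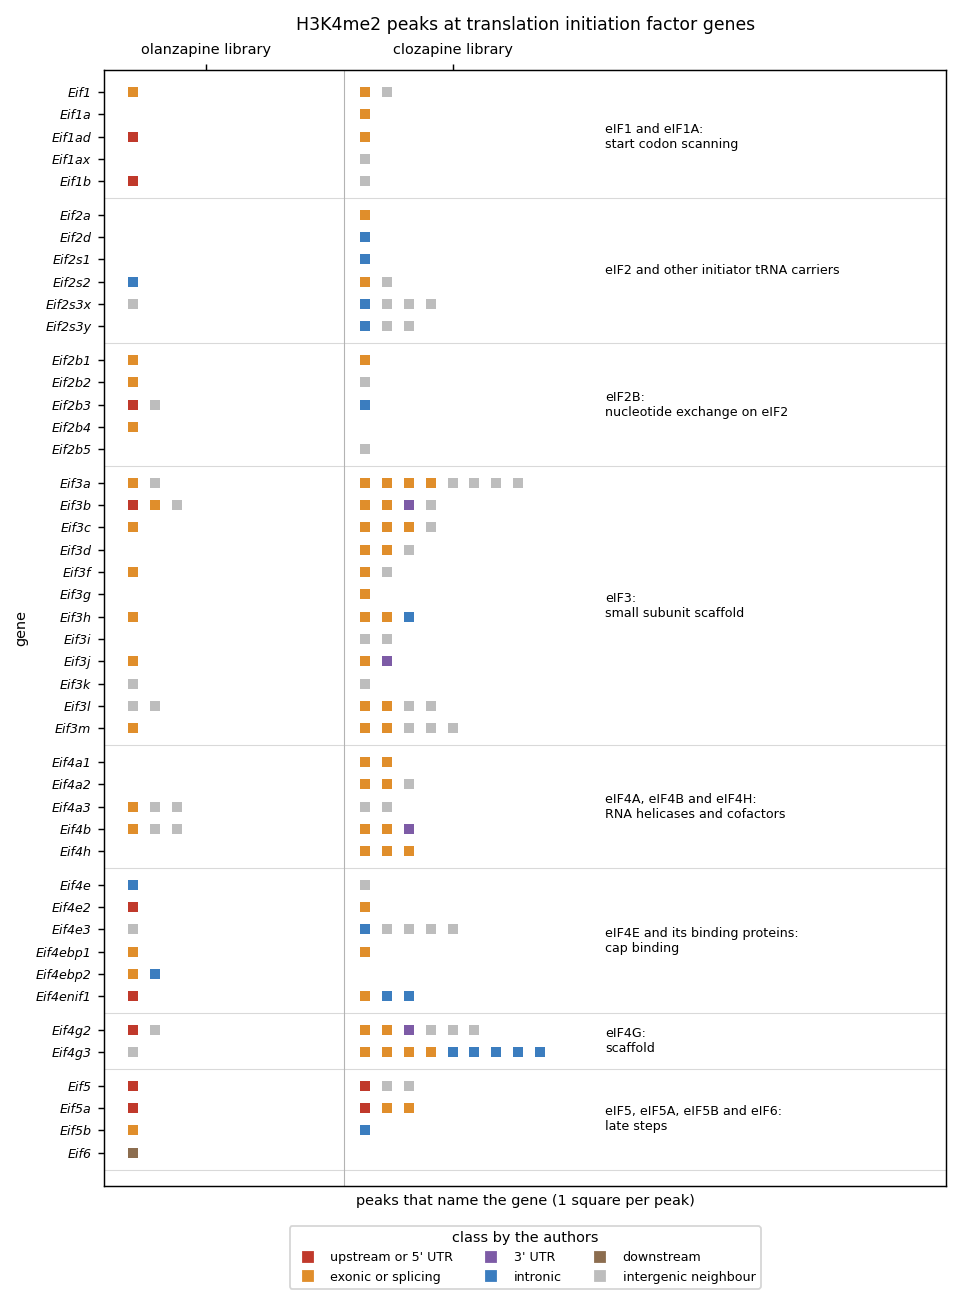
Each row is a gene and each square a peak that names it, in olanzapine liver (left) and the clozapine library (right), coloured by the authors' class and grouped by the role of the factor. Red squares, the upstream and 5' UTR classes, stand at 9 genes in olanzapine liver and at 2 in clozapine liver.

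Group totals below count members alone, so Eif3e, Eif4ebp3, Eif4g1 and Eif5a2, which no peak named, are not in them. Every member has a peak in at least 1 list by the rule, which raises the group shares. Over all genes the shares by the counted classes were 22.7% in olanzapine liver and 14.4% in clozapine liver. The group that recognises the start codon had peaks at 3 of 5 genes in each library. Eif1, whose product guards the choice of the start codon, had an exonic peak in both. It was 1832 bp long in olanzapine liver (chr10:88226892-88228723, fold 4.73) and 338 bp in clozapine liver (chr10:88228846-88229183, fold 5.70). The clozapine peak began 122 bp after the olanzapine peak ended and lay nearer the 3' end of the gene, from which the olanzapine peak was 823 bp and the clozapine peak 363 bp away. Eif1ad, an eIF1A-like gene, had a 5' UTR peak of 848 bp in olanzapine liver (fold 3.77), shared in name with Banf1, and an exonic peak of 170 bp in clozapine liver (fold 3.22). In GRCr8 the starts of Eif1ad and Banf1 lie 163 bp apart on opposite strands and point away from each other. Eif1b had a 5' UTR peak in olanzapine liver (497 bp, fold 4.31) and only an intergenic neighbour peak in clozapine liver. Eif1a had an exonic peak in clozapine liver (475 bp, fold 2.82), and Eif1ax an intergenic one there.

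The carriers of the initiator tRNA had 0 of 6 genes with a peak of the counted classes in olanzapine liver and 2 of 6, Eif2s2 and Eif2a, in clozapine liver. Eif2s1 encodes the alpha subunit of eIF2, the one the eIF2 kinases phosphorylate. No olanzapine peak named Eif2s1, and an intronic peak of 170 bp did in clozapine liver (fold 3.85). Eif2s2, the beta subunit gene, had an intronic peak 198 bp inside its start in olanzapine liver (321 bp, fold 3.81). Its exonic peak in clozapine liver lay 20245 bp from the start (182 bp, fold 3.87). Thus the Eif2s2 peak near the start did not enter the count above, since the authors classed it as intronic. Eif2s3x, an X-linked gamma subunit gene, had 1 intergenic neighbour peak in olanzapine liver, and in clozapine liver an intronic peak of 170 bp (fold 2.86) and 3 intergenic ones. Eif2s3y, its counterpart on the Y chromosome, had an intronic peak of 737 bp in clozapine liver (fold 3.86) and no peak in olanzapine liver. That peak is 1 of the 146 on Y chromosome sequence in a library labelled female.

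The eIF2B genes encode the complex that recharges eIF2. Peaks of the counted classes stood at 4 of 5 of them in olanzapine liver and at 1 of 5 in clozapine liver. All genes had 22.7% and 14.4% by these classes, in that order, the second close to 1 of 5. Eif2b3 had a 5' UTR peak in olanzapine liver from 7 to 202 bp after its start (chr5:135882985-135883180, 196 bp, fold 5.26). Its clozapine peak was intronic, 24030 bp from the start (177 bp, fold 5.57). Eif2b1 had an exonic peak in each, 792 bp in olanzapine liver (fold 4.59) and 170 bp in clozapine liver (fold 2.95). Eif2b2 had an exonic peak 66 bp inside its start in olanzapine liver (196 bp, fold 4.18) and an intergenic neighbour peak in clozapine liver. Eif2b4 had an exonic peak in olanzapine liver alone (897 bp, fold 3.73). The olanzapine peaks of Eif2b1 and Eif2b4 also named Gtf2h3 and Snx17, whose GRCr8 starts lie 109 and 267 bp from those of Eif2b1 and Eif2b4 and point the other way. Eif2b5, the catalytic subunit gene, had no peak of its own in either library: a clozapine peak of 1262 bp lay 30196 bp away in intergenic sequence.

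The eIF3 genes were the largest group, with 7 of 12 members in olanzapine liver and 10 of 12 in clozapine liver. Eif3e, named by no peak, is not among the 12. All 7 olanzapine genes (Eif3a, Eif3b, Eif3c, Eif3f, Eif3h, Eif3j and Eif3m) were also among the 10 clozapine genes. At Eif3a, Eif3b and Eif3m, whose 5' end was known, the olanzapine peaks outside the intergenic class lay at or near it and the clozapine peaks outside that class farther along. Eif3a, a core scaffold subunit gene, had an exonic olanzapine peak over its start, from -479 to 632 bp relative to it (chr1:282169385-282170496, fold 3.94). Its 4 exonic clozapine peaks began 17150 to 29006 bp from the start, with folds of 3.07 to 3.90, and the longest, 1289 bp, ran over the 3' end of the gene. Eif3b, another core subunit gene, had olanzapine peaks 752 bp before its start (258 bp, fold 4.28) and 251 bp inside it (400 bp, fold 2.73). In clozapine liver Eif3b had exonic peaks 6176 and 22705 bp from the start (folds 3.23 and 3.04) and a 3' UTR peak 98 bp from the 3' end (fold 3.67).

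Eif3c had a 1296 bp exonic peak in olanzapine liver (fold 4.84) with the highest -log10 q of the members there, 5.83. In clozapine liver it had 3 exonic peaks of 986, 206 and 2025 bp, with folds of 3.45, 3.61 and 3.57. The olanzapine peak lay 17380 bp from the 3' end of the gene, and the first of the clozapine peaks 239 bp from it. Eif3f had an exonic peak of 196 bp, 8731 bp from its 3' end, in olanzapine liver (fold 4.02) and one of 1001 bp, 95 bp from its 3' end, in clozapine liver (fold 4.98). Eif3m had an exonic peak of 456 bp over its start in olanzapine liver (fold 3.56), and exonic peaks 3395 and 11595 bp from the start in clozapine liver (folds 2.78 and 3.03). Eif3j had an exonic peak of 1437 bp in olanzapine liver (fold 5.24), and an exonic and a 3' UTR peak of 170 bp each in clozapine liver (folds 3.32 and 2.90).

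Eif3h had an exonic peak of 210 bp in olanzapine liver (fold 4.29), and 2 exonic peaks and an intronic peak in clozapine liver (folds 3.14, 2.90 and 3.47). All 4 lie on chromosome 6 in the files, whereas the names table places Eif3h on another chromosome, so Eif3h is reported with that uncertainty. Eif3d, Eif3g and Eif3l had exonic peaks in clozapine liver alone: Eif3d at 569 and 5227 bp from its 3' end (folds 3.12 and 3.75), Eif3l at 5227 and 7870 bp from its start (folds 3.18 and 3.13) and Eif3g with 1 of 465 bp (fold 2.80). Eif3k and Eif3i had intergenic neighbour peaks only. The olanzapine peak beside Eif3k, 217 bp long and 4493 bp away, had a fold of 6.36, and the clozapine peak 1177 bp away a fold of 3.48.

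**Figure D2:**
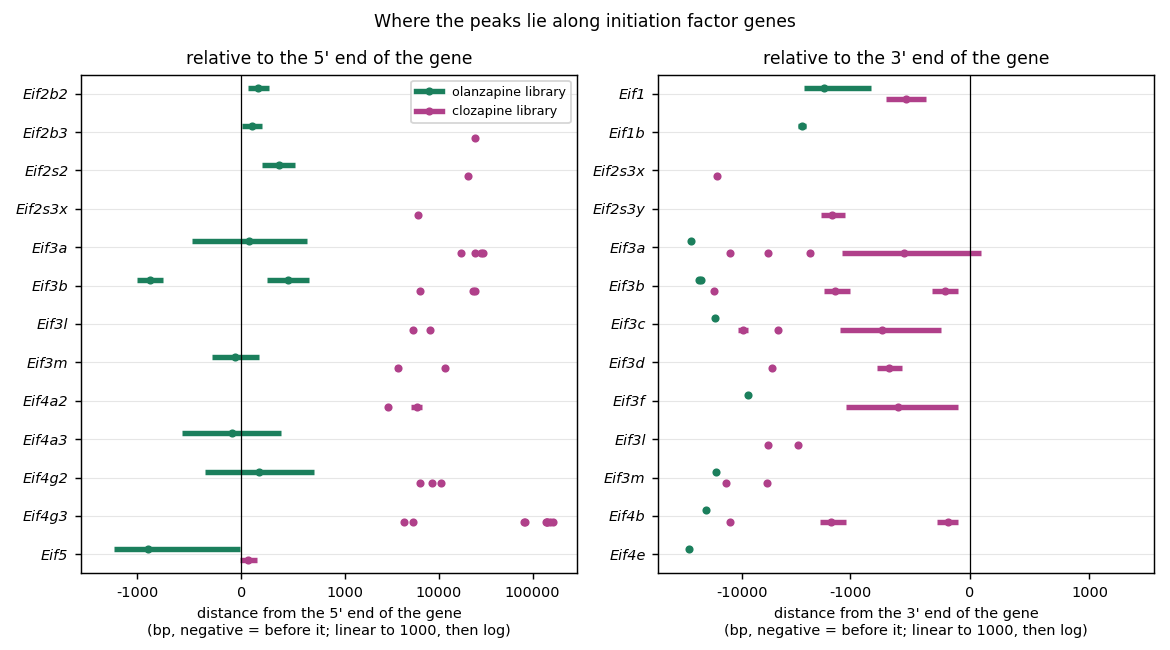
Peaks of any class but intergenic are drawn as lines with a dot at the middle, for members whose 5' end (left panel) or 3' end (right panel) could be placed, with the distance in bp on an axis that is linear to 1000 bp and logarithmic beyond. Olanzapine peaks (green) sit within 1000 bp of the 5' end in the left panel, and clozapine peaks (purple) lie more than 1000 bp inside the gene except at Eif5.

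The RNA helicase group had 2 of 5 genes with a peak in olanzapine liver and 4 of 5 in clozapine liver. Eif4a1 encodes the helicase that unwinds mRNA leaders. No olanzapine peak named Eif4a1, and clozapine liver had exonic peaks of 1274 and 212 bp there (folds 3.95 and 3.88). Its paralogue Eif4a2 likewise had clozapine peaks alone, 5020 and 2736 bp from the start (1553 and 201 bp, folds 4.79 and 4.40). Eif4a3, the helicase of the exon junction complex, showed the other pattern. An olanzapine peak of 947 bp lay over its start (fold 3.70), and clozapine liver had intergenic neighbour peaks alone. Eif4b, a cofactor of the helicase, had an exonic peak of 404 bp in olanzapine liver (fold 3.85), 21372 bp from its 3' end. In clozapine liver Eif4b had exonic peaks 12719 and 1098 bp from the 3' end (folds 4.56 and 2.95) and a 3' UTR peak 100 bp from it (fold 3.60). Eif4h, a further cofactor, was named by no olanzapine peak and held the strongest member peak of the clozapine library, exonic and 255 bp long (chr12:25102768-25103022, fold 6.58), above 97.2% of that list. Its other 2 clozapine peaks were 186 and 2019 bp long (folds 2.99 and 3.57).

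Of the cap-binding genes and their regulators, 4 of 6 had a peak in olanzapine liver and 3 of 6 in clozapine liver. Eif4e, the cap-binding protein gene, had an intronic peak of 220 bp in olanzapine liver (fold 4.36) and an intergenic neighbour peak 198524 bp away in clozapine liver, so it is not in either count. Eif4e2, a cap-binding homologue linked to repression of translation, held the strongest member peak of the olanzapine library, in the 5' UTR class (chr9:94310922-94311176, 255 bp, fold 6.70), above 98.1% of that list. Its clozapine peak was exonic, 170 bp long, with a fold of 2.85. Eif4ebp1 encodes a repressor that mTORC1 phosphorylates. It had an exonic peak of 361 bp in olanzapine liver (fold 4.05) and one of 170 bp in clozapine liver (fold 3.16). Eif4ebp2, a second such repressor gene, had an exonic peak of 921 bp (fold 4.18) and an intronic one of 200 bp (fold 4.15) in olanzapine liver, and no clozapine peak named it. Eif4enif1, the importer of eIF4E into the nucleus, had the longest member peak of the olanzapine library, 2254 bp in the 5' UTR class (fold 4.49). In clozapine liver it had an exonic peak of 179 bp (fold 3.82) and intronic peaks of 170 and 171 bp (folds 3.08 and 4.80). Eif4e3 had no peak of its own in olanzapine liver and an intronic peak of 878 bp in clozapine liver (fold 2.90).

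Of the eIF4G scaffold genes, Eif4g2 had a peak in both libraries and Eif4g3 in clozapine liver. Eif4g1, the main scaffold gene, was named by no peak of either list. Eif4g2 had a 5' UTR peak over its start in olanzapine liver (1049 bp, fold 3.63). Its clozapine peaks were 2 exonic ones 5953 and 7994 bp from the start (both fold 3.44) and a 3' UTR peak 10202 bp from it (fold 4.34). Eif4g3 had the most peaks of its own among the members, 9 in clozapine liver. They were 4 exonic and 5 intronic, the nearest 4162 bp and the farthest 166809 bp from the start, with folds of 2.91 to 4.98. In olanzapine liver a peak of 992 bp lay in intergenic sequence 52099 bp from Eif4g3 (fold 4.24).

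The genes of the late steps had 3 of 4 in olanzapine liver and 2 of 4 in clozapine liver. Eif5 encodes the factor that triggers GTP hydrolysis by eIF2. Its olanzapine peak was in the upstream class (chr6:136002418-136004205, 1788 bp, fold 4.24) and ended 9 bp before the start. Its clozapine peak was in the 5' UTR class (chr6:136004197-136004366, 170 bp, fold 3.94) and lay over the start, so the peaks shared 9 bp. Eif5a encodes the factor that carries the amino acid hypusine and helps ribosomes past stalling sequences. Its 5' UTR peaks shared 178 bp: chr10:56531010-56531496 in olanzapine liver (487 bp, fold 5.48) and chr10:56531319-56531535 in clozapine liver (217 bp, fold 4.23). Clozapine liver had 2 further exonic Eif5a peaks of 373 and 1070 bp (folds 6.02 and 4.21). Eif5b, which joins the ribosomal subunits, had an exonic peak of 232 bp in olanzapine liver (fold 3.24) and an intronic peak of 170 bp in clozapine liver (fold 4.54). Eif6, which keeps the large subunit apart, had only a downstream peak shared in name with Mmp24 in olanzapine liver (409 bp, fold 3.92).

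Peaks of the libraries overlapped by at least 1 bp at Eif5 and Eif5a, 2 of the 20 members with a peak of their own in both. By peaks, 2 of 43 olanzapine peaks that named a member overlapped a clozapine peak (4.65%), beside 167 of 7128 in the whole list (2.34%). A shared gene name therefore seldom meant a shared interval. Strand was known for 18 of the 20 members, and at 17 of them every clozapine peak lay 3' of every olanzapine peak by its midpoint. Eif5a was the exception. The share was 94.4% (74.2 to 99.0), against 85.7% (84.0 to 87.2) of the 1858 genes with such peaks in both libraries and a known strand, so this order was also the order at most genes. The strand of Eif4b, absent from the promoter table, was read from its clozapine 3' UTR peak. Its order, counted among the 17, was therefore partly set in advance.

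Gene ends on Rnor_6.0 were placed from the distances to neighbouring genes that the authors give for intergenic peaks. The exonic member peaks with a known 5' end in olanzapine liver were 5, at Eif2b2, Eif3a, Eif3b, Eif3m and Eif4a3, and 5 of 5 lay within 1000 bp of it. In clozapine liver 0 of 19 did, the nearest being 2736 bp away at Eif4a2. Over all exonic peaks the shares were 86.6% (84.1 to 88.9) of 764 in the olanzapine list and 8.34% (6.97 to 9.95) of 1331 in the clozapine list. Within 1000 bp of the 3' end lay 1 of 7 exonic member peaks in olanzapine liver, at Eif1, and 5 of 19 in clozapine liver, at Eif1, Eif3a, Eif3c, Eif3d and Eif3f. The whole lists had 10.2% (8.12 to 12.7) there for olanzapine and 17.0% (14.8 to 19.5) for clozapine. Exonic peaks with a known 5' end thus lay mostly close to it in olanzapine liver and mostly farther into the gene in clozapine liver, among the members as among all genes.

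By class, the 43 olanzapine peaks naming a member were exonic in 37.2% (24.4 to 52.1) and upstream or 5' UTR in 20.9% (11.4 to 35.2) of cases, near the 41.0% and 18.8% of all olanzapine peaks. The 107 clozapine peaks naming a member were exonic in 43.0% (34.0 to 52.5) and intergenic in 37.4% (28.8 to 46.8) of cases, where all clozapine peaks had 21.0% and 52.2%. Upstream or 5' UTR peaks were 1.87% (0.514 to 6.56) of the clozapine member peaks and 0.854% of all. In olanzapine liver 1 member, Eif3b, had 2 or more peaks of the counted classes, as did 0.852% of all genes. In clozapine liver 14 members had as many, as did 4.19% of all genes. In clozapine liver Eif3a and Eif4g3 had 4 each, and Eif3c, Eif4h and Eif5a 3 each.

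**Figure D3:**
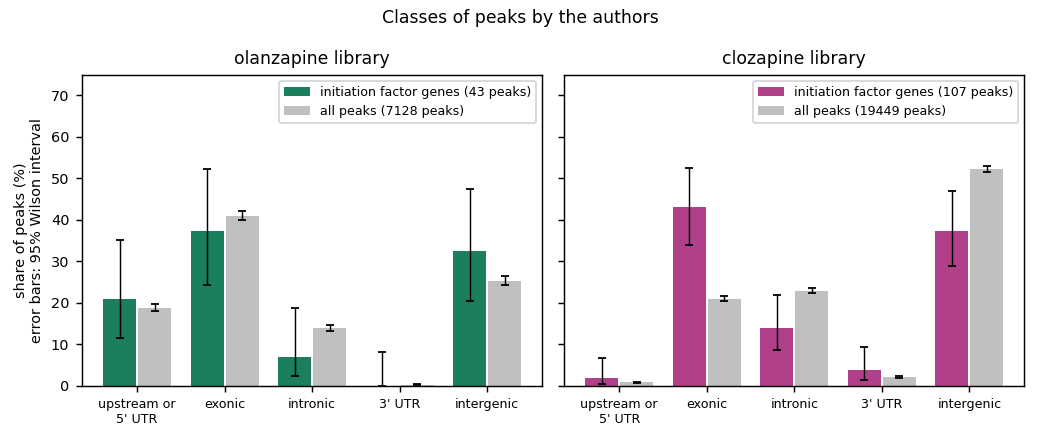
Bars give the share of peaks in each class of the authors for peaks that name a member (coloured) and for all peaks (grey), olanzapine left and clozapine right, with 95% Wilson intervals. The exonic bar of the clozapine library stands at 43.0% for the members and 21.0% for all peaks.

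Member peaks had a median length of 487 bp in olanzapine liver (range 196 to 2254) and 173 bp in clozapine liver (170 to 2025). All peaks had 577 bp in olanzapine liver and 171 bp in clozapine liver. Peaks of at most 200 bp were 4 of 43 in olanzapine liver and 62 of 107 in clozapine liver, and 41 of the latter library's member peaks were 170 bp, the shortest length there. Of the clozapine member peaks 38.3% shared their fold, p and q with another peak of the list, and 5 had the commonest fold, 2.90, which 1450 peaks carried. The median fold was 4.15 for the olanzapine member peaks (quartiles 3.79 and 4.46), beside 4.30 for all. It was 3.64 for the clozapine member peaks (quartiles 3.15 and 4.34), beside 3.78 for all. Both medians lay below those of the whole lists. Folds were not compared between the lists, because the control of each call is not given in the sources used here and the libraries differ in reads assigned to the genome.

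**Figure D4:**
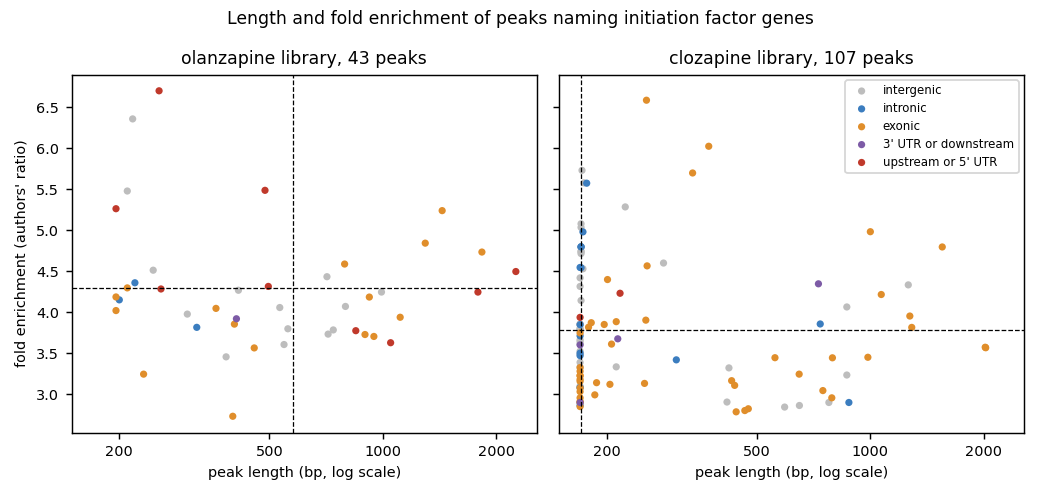
Each point is a peak that names a member, with its length in bp on a log axis and its fold enrichment, 43 in olanzapine liver (left) and 107 in clozapine liver (right), coloured by class, and dashed lines give the medians of all peaks. Clozapine points crowd at the shortest length of 170 bp, and olanzapine points spread from 196 to 2254 bp.

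Promoters in the RefSeq table were matched for 41 of the 45 members, 1 start per gene. Their median GC content was 60.3% (lowest 46.3, highest 82.3), beside 58.0% over 15165 curated genes. Their median CpG ratio, observed over expected, was 0.889, beside 0.656. The ETS core stood in 16 of 41 member promoters (39.0%) and in 13.0% of all, on either strand. It was found at Eif2b1, Eif2b2, Eif3m and Eif4e2 among others. The E-box stood in 7 of 41 (17.1%, beside 7.98% of all), at Eif1b, Eif3a, Eif3b, Eif3f, Eif4e, Eif4h and Eif5a. The GC box stood in 68.3% (49.8% of all), the CCAAT box in 31.7% (38.2% of all) and the TATA box (TATAAA) in 4.88% (11.8% of all). The NRF1 palindrome, GCGCA followed by TGCGC, was in 1 member promoter, and the palindrome of TCTCG followed by CGAGA in 0. A C at the annotated start followed by at least 4 pyrimidines, the form of a 5' terminal oligopyrimidine start, was found at Eif2a alone among the members (2.44%, beside 2.49% of all). The ETS core was in 7 of 21 promoters of members with an olanzapine peak and in 9 of 20 of those without. These matches are letters in a window, and no binding was measured.

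Genes around initiation were counted in 4 lists by the same classes. The lists together had 27 of 46 genes in olanzapine liver and 22 of 46 in clozapine liver, 13 of them in both, where all genes had 22.7%, 14.4% and 5.72%. The widest gap was in the eIF2 kinases and the integrated stress response, with 9 of 10 in olanzapine liver and 1 of 10 in clozapine liver, the second of these close to the 14.4% of all genes. The olanzapine genes were the 4 kinases Eif2ak1 to Eif2ak4, which phosphorylate eIF2 alpha, the transcription factors Atf4 and Ddit3, the phosphatase subunits Ppp1r15a and Ppp1r15b, and Trib3. Eif2ak4, the amino acid sensor, had a 335 bp exonic olanzapine peak (fold 5.48) and an intronic clozapine peak (170 bp, fold 3.27). Atf4 had an exonic peak in both, 1182 bp in olanzapine liver (fold 4.04) and 1188 bp in clozapine liver (fold 3.94). With any class but intergenic the counts were 9 and 4 of 10, where all genes had 26.8% in olanzapine liver and 28.2% in clozapine liver. Their substrate gene Eif2s1, as above, had an intronic clozapine peak alone.

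For the inputs from mTORC1 and the MNK kinases the order of the libraries was reversed, with 5 of 12 genes in olanzapine liver and 9 of 12 in clozapine liver. All genes had 22.7% and 14.4% by these classes, for this list and those below. Mtor, the kinase of mTORC1, had a 5' UTR peak of 545 bp in olanzapine liver (fold 4.05). Its exonic clozapine peaks had folds of 2.78 to 5.22. Rps6, a ribosomal protein that the S6 kinases phosphorylate, had exonic clozapine peaks with folds of 8.62, 6.97 and 3.29 and is not among the olanzapine genes. With any class but intergenic the counts were 7 and 9 of 12, so the libraries differed less, where all genes had 26.8% and 28.2%. Elongation and termination genes had 7 of 12 in olanzapine liver and 8 of 12 in clozapine liver. Eef1a1, the main tRNA-delivering elongation factor gene, had a 5' UTR peak of 1540 bp in olanzapine liver (fold 4.41) and an exonic peak of 2222 bp in clozapine liver (fold 7.71). Eef2, the translocation factor gene, had exonic peaks of 1419 bp in olanzapine liver (fold 3.38) and 4058 bp in clozapine liver (fold 5.52). The list of initiation helpers and mRNA-binding partners had 6 of 12 in olanzapine liver and 4 of 12 in clozapine liver, and Pabpc1, the poly(A)-binding protein gene, was in both. With any class but intergenic these counts were 6 and 6 of 12, and those of elongation and termination stayed at 7 and 8 of 12.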

How the data were processed

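H3K4me2 ChIP-seq peaks of 1 olanzapine and 1 clozapine liver library were used as deposited. BWA was the authors' aligner, with Rnor_6.0 as the genome, and reads with mismatches or several positions were dropped. Both a single-end run and a paired-end library are named, so the read layout is unclear. The peak caller, its control and threshold, and the gene annotation are not given in the sources used here. For each peak the authors give a length in bp, a fold enrichment (a ratio over a background), and the -log10 of the p-value and of the q-value. The lists give no reads per peak; the study's statistics give assigned reads per library, several times fewer for clozapine than for olanzapine from a similar number of clean reads. The authors' deposited GO and pathway tables and short extracts of the lists, which hold the authors' own comparisons, were not used.

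Gene names were split at semicolons, and names that a spreadsheet had turned into dates (9 for olanzapine and 22 for clozapine) were left out. Of 12100 names, 11854 (98.0%) matched the RefSeq names table of GRCr8, as did 45 members, 1 under a newer symbol. Gene ends on Rnor_6.0 were taken from the authors' distances to the neighbours of intergenic peaks (5098 left ends and 5105 right ends, without 73 that had more than 1 position). Strands came from the RefSeq promoter table. For a gene without a usable strand there, such as Eif4b, the strand was read from a 5' or 3' UTR peak at a known gene end. With strands from the promoter table alone, 92 of 94 olanzapine and 6 of 6 clozapine 5' UTR peaks, and 50 of 51 clozapine 3' UTR peaks, lay nearer to the end they name. This measure and its distance of 1000 bp were chosen after seeing the data, and the members and lists were chosen with earlier results of these data known.

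Genes named are members with a peak of any class in both lists, with an upstream or 5' UTR clozapine peak, the 6 per list with the highest fold and the 6 with the longest peak, those with 3 or more peaks in a list, and Eif2s1, Eif2b5, Eif3a, Eif4e, Eif4g1, Eif4a1, Eif4ebp1, Eif4ebp2, Eif5a and Eif6. Any other gene named was picked as an example once its values had been seen. With 1 library per drug no test was run. Shares carry 95% Wilson intervals. The overlap and gene-end steps were tested on simulated data. Alternatives were other classes, a minimum -log10 q of 5, a minimum fold of 5, peaks longer than 200 bp, peaks naming 1 gene, shares of covered bases, other overlap criteria and other distances. The software was matplotlib 3.10.9, scipy 1.17.1, pandas 2.3.3, numpy 2.4.6 and Python 3.11.15.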

Additional observations from a re-analysis of the deposited data

How the results depend on the processing

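No paired analysis was possible because each drug has 1 library. Of 66 alternative values of 17 results, 36 were classed as the same as the main value and 30 as moved. Values classed as the same could still differ widely, such as 32 olanzapine members with every class against 24 in the main count. The label therefore does not mean an unchanged value. With a -log10 q of at least 5, members with a peak numbered 3 in olanzapine liver, 5 in clozapine liver and 1 in both, pathway genes 0 for olanzapine and 7 for clozapine, the median fold was 5.92 for olanzapine and 4.98 for clozapine, the upstream and 5' UTR share of olanzapine member peaks was 50.0% and the exonic share of clozapine member peaks 29.4%. With a fold of at least 5, members with a peak numbered 4 in olanzapine liver, 3 in clozapine liver and 1 in both, the exonic share was 16.7% for olanzapine and 33.3% for clozapine, and the olanzapine upstream and 5' UTR share 50.0%. Counting just upstream and 5' UTR peaks, the members numbered 9 for olanzapine, 2 for clozapine and 2 in both. With every class, the clozapine members numbered 42 and those in both 29. With peaks longer than 200 bp, members with a peak numbered 21 in olanzapine liver, 18 in clozapine liver and 8 in both. The counts of 21 and 18 were classed as the same, but the order of the libraries turned from the main count of 24 and 27. In that setting the clozapine exonic share was 62.2% and the clozapine median length 475 bp. By covered bases the clozapine exonic share was 56.9%. Among exonic clozapine peaks the median length was 253 bp and the median fold 3.30, and over the strongest peak of each member the fold was 4.19. Overlap of at least 50% of the shorter peak left 1 member, and a gap of up to 10000 bp gave 15. Within 500 bp of the 3' end, a distance chosen after seeing the data, lay 0% of exonic olanzapine member peaks. Clozapine has several times fewer assigned reads in the study's statistics, and the lists carry no reads per peak, so a gene without a listed peak is not shown to lack the mark.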
